A study of Mus musculus with 6 samples.

Results

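The 10 genes described here, which set the supply of phosphate and pyrophosphate to bone matrix or act in the matrix itself, were measured in cultures of mouse calvarial cells with and without functional Fas ligand. They are Alpl, Enpp1, Ank, Phex, Dmp1, Ibsp, Smpd3, Phospho1, Slc20a1 and Slc20a2, named for their known roles, with earlier results of these data known, and all 10 were found among the 57180 gene rows of the count table. The cells were taken from the calvaria, the flat bones of the skull, and grown in osteogenic medium with ascorbate and 4 mM β-glycerophosphate, an organic phosphate that alkaline phosphatase can cleave. The wt group is 3 libraries from C57BL/6 mice, and the gld group, labelled FasL KO, is 3 libraries from B6Smn.C3-Faslgld/J mice, which carry the gld mutation of Fasl on both copies. Both groups shared the medium, with 10% fetal bovine serum and 1% penicillin/streptomycin, and no label gives either group added Fas ligand. Another kind of culture, gld cells given recombinant Fas ligand for 72 h from day 14, ran beside them and is not analysed here. Day 14 and 72 h are also the times recorded for the wt and gld libraries. The sources used here give neither the animals' ages nor the number behind each library, so p-values measure only how these libraries vary, which can be technical.

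Mineral grows in bone matrix when phosphate is abundant and its inhibitor, pyrophosphate, is scarce. Enpp1 makes pyrophosphate outside the cell from nucleotide triphosphates, Ank lets it and its precursor out of the cell, and alkaline phosphatase (Alpl) splits it into phosphate. Inside matrix vesicles, Smpd3 and Phospho1 release phosphate from membrane lipid in successive steps, Slc20a1 and Slc20a2 carry phosphate across membranes, and Phex, Dmp1 and Ibsp belong to the matrix side of the process.

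The libraries were made from the 3′ ends of mRNA and held 2011173 to 3105322 counts in wt and 4048258 to 5245546 in gld, so the gld libraries were deeper without overlap. Levels are CPM (counts scaled to library size, with TMM factors), given as mean ± SD of 3 libraries, and fold changes are log2, gld minus wt, ± SE. Fasl itself was listed at 0 in all 6 libraries, so its counts check no label, and gld is a point mutation that 3′ counts would not show. Osteoblast markers were uneven: Col1a1 and Col1a2 were abundant, while Spp1, Bglap and Sp7 had 4, 1 and 20 counts over all 6 libraries. The last exonic bases of Spp1, Bglap and Sp7 are shared, wholly or partly, by several annotated transcripts. Low counts of genes with such an end do not show that the transcripts were scarce. Of 5 osteoblast markers tested of 11, 4 were higher in gld and none lower. Omd, 1 of these 4, had no count in wt and entered through its gld counts alone. Of 15 macrophage and osteoclast markers, 7 were tested, and 6 of these entered through their gld counts alone, so that they had to differ. Ctsk, the one that passed in both groups, was higher in gld (172 ± 9.08 against 464 ± 42.1 CPM) and made up nearly all of the list's summed wt level of 164.5 to 186.8 CPM, beside 879 to 1586 CPM in gld. C1qa, C1qb, C1qc, Laptm5, Cd68 and Mrc1 had 0 to 8 counts over the wt group and group means of 13.5 to 186 CPM in gld, while Csf1r, Adgre1, Tyrobp, Fcer1g, Ctss, Aif1 and Acp5 were listed at 0. All of those at 0 except Csf1r have an end shared by several transcripts, and all of the last 300 exonic bases of Csf1r lie in exons of Hmgxb3 on the other strand. Of 10 chondrocyte markers 5 were tested, 4 of them entering through gld alone: Acan and Matn3 had no count in wt and 22.9 and 25.5 CPM in gld, Col9a2 had 3.26 against 140 CPM and Col11a2 1.45 against 107 CPM. The untested ones were at or near 0: Col2a1 had 9 counts, all in gld 1, Matn1 had 24, of which 23 in gld 1, and Comp had 2. Col9a1 and Snorc were listed at 0. Of these untested markers, all but Matn1 have an end shared, wholly or partly, by several transcripts. Sox9, which passed in both groups, was higher in gld (215 ± 7.08 against 788 ± 30.3 CPM) and carried most of the list's summed 211.9 to 224.1 CPM in wt, beside 1054 to 1110 CPM in gld. All 4 tested smooth muscle and myofibroblast markers of 7 were lower (6783 to 7521 CPM against 3202 to 3364 CPM). Of the osteocyte markers 2 of 7 were tested and Pdpn was lower, of the adipocyte markers 1 of 6 was tested and Lpl was lower, and of the endothelial markers 2 of 6 were tested and edgeR called none, with 0 at an unadjusted p under 0.05 and 0 in DESeq2 and limma-voom. Of the untested adipocyte markers, Fabp4 had 1 count in wt and 14 in gld, Adipoq had 1 in all, and Plin1, Pparg and Cebpa were listed at 0. The ends of Fabp4, Pparg and Cebpa are shared, wholly or partly, by several transcripts. These marker differences lie between the same groups of libraries as the gene changes below, and their part in those changes was not tested. In RNA from a whole culture, a change in the number of cells of a type and a change in RNA per cell cannot be told apart.

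Gld cultures held less Alpl transcript and more Enpp1, Phex, Dmp1, Ibsp and Smpd3 transcript than wt cultures. Of the 10 genes, 8 had enough counts to be tested, 5 were higher, 1 was lower and 2 did not pass edgeR's quasi-likelihood test at an adjusted p of 0.05. The same test called 17.4% of all 8692 genes tested, 9.74% as higher and 7.69% as lower in gld. Phex, Dmp1, Ibsp and Smpd3 entered the test through their gld counts alone, so that their being called has little weight as a count. Alpl, Enpp1, Ank and Slc20a2 had enough counts in both groups, and of these 4 Alpl and Enpp1 were called. The groups of CPM values did not overlap for the 6 called genes, as for 33.3% of all genes tested.

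**Figure D1:**
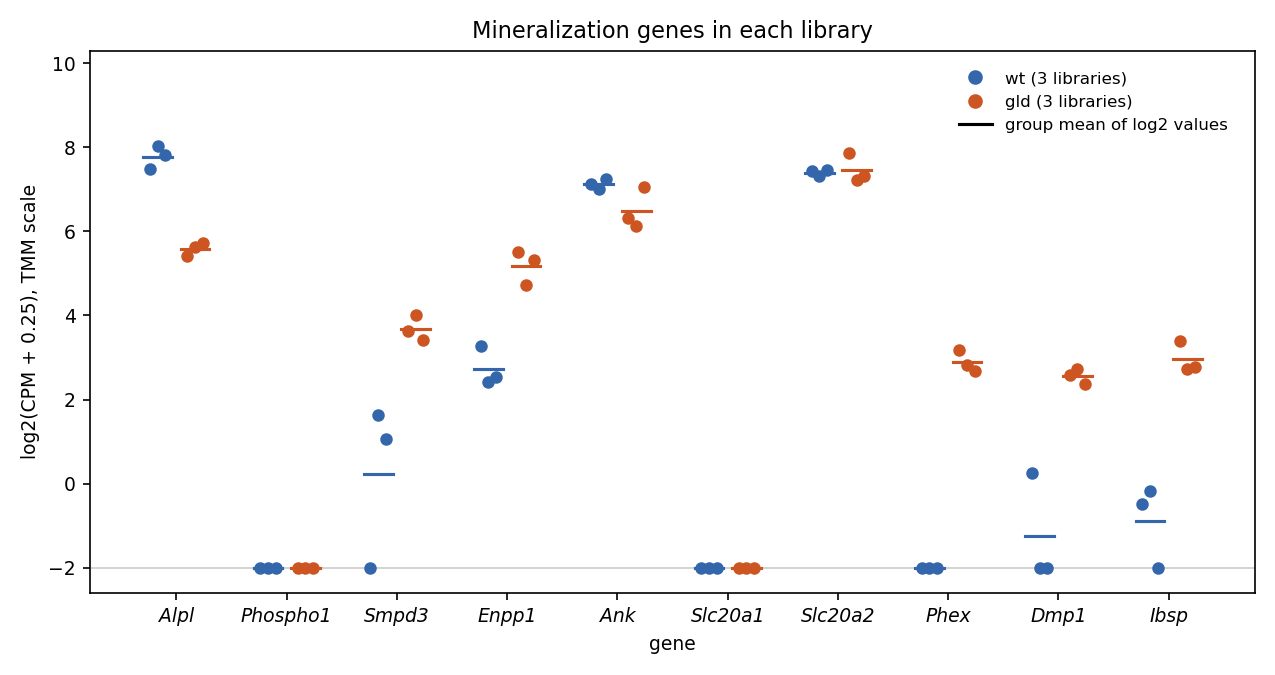
Level of each of the 10 genes in each library, as log2 of CPM (TMM scale) plus a pseudocount of 0.25; points are libraries, bars are group means of the log2 values, and points on the grey line have no count. Alpl lies lower and Smpd3, Enpp1, Phex, Dmp1 and Ibsp lie higher in all 3 gld libraries than in any wt library, and Phospho1 and Slc20a1 are listed at 0 throughout.

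The stretches before the start sites of 5 of the called genes are shown here, so that the ones that were higher in gld can be read beside Alpl, which was lower. Each is the 250 bases before the RefSeq start on GRCm38.p6, 5′ to 3′ on the gene's strand. Capitals mark matches, on either strand, to ACCACA (the core bound by RUNX factors), CCAAT (the box of that name), TATAAA (the TATA box) or TAATTA (a homeodomain core).
Dmp1, chr5:104202367-104202616, plus strand: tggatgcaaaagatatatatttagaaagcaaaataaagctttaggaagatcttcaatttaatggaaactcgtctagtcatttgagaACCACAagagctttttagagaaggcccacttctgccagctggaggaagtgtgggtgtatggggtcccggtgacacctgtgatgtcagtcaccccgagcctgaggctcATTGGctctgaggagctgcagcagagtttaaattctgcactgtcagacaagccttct
Ibsp, chr5:104299037-104299286, plus strand: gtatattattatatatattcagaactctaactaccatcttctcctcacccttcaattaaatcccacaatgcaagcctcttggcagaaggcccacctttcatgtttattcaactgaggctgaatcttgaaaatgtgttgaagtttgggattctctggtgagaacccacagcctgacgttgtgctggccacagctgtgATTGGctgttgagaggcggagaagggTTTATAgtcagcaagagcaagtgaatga
Phex, chrX:157415287-157415536, minus strand: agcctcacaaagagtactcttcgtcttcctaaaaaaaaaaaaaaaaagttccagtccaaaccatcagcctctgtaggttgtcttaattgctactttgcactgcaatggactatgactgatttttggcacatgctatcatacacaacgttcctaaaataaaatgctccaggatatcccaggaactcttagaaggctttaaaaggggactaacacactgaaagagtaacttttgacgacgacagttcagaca
Enpp1, chr10:24712160-24712409, minus strand: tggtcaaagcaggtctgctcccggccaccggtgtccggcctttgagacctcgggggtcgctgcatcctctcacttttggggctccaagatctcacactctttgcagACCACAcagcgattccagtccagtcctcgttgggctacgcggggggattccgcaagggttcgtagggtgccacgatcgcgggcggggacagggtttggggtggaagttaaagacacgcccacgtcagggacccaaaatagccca
Alpl, chr4:137796385-137796634, minus strand: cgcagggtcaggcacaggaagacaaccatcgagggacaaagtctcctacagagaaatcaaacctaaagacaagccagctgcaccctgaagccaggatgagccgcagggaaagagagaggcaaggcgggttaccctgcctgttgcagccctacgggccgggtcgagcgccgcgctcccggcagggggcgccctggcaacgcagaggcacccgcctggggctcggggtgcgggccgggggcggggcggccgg
The RUNX core was present before Dmp1, 164 to 159 bases from the start, and before Enpp1, 144 to 139 bases from it. An inverted CCAAT box lay 57 to 53 bases before the start of Dmp1 and 54 to 50 before that of Ibsp, and Ibsp had an inverted TATA box 28 to 23 bases before its start. None of the 4 motifs was matched in the Phex stretch or the Alpl stretch shown. Among 32851 RefSeq windows of the same length, 14.0% held the RUNX core, 33.8% the CCAAT box, 12.4% the TATA box and 4.84% the homeodomain core. The GENCODE transcript of Ibsp starts 116 bases upstream of the RefSeq start, that of Phex 26 bases and that of Dmp1 4 bases. RefSeq gives Alpl another start at 137766475, with an inverted TATA box 192 to 187 bases before it, and Dmp1 another at 104197575, with an inverted CCAAT box 101 to 97 bases before it, and 3′ end counts do not tell starts apart. RefSeq windows were matched for 8 of the 10 genes, the others being Smpd3 and Slc20a2. Matches were not limited to called genes. Phospho1, listed at 0 counts, had an inverted CCAAT box 40 to 36 bases before its start. Slc20a1, also listed at 0, had a CCAAT box 127 to 123 bases and an inverted RUNX core 77 to 72 bases before its start at 129198773.

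Alpl encodes tissue-nonspecific alkaline phosphatase, the enzyme that removes pyrophosphate and frees phosphate at the surface of mineralizing cells (ENSMUSG00000028766, GRCm38 chromosome 4, 137741733 to 137796384, minus strand). Its wt counts were 381, 821 and 739 (179, 259.6 and 226.9 CPM) and its gld counts 169, 188 and 258 (42.2, 49.6 and 53.0 CPM). Every gld library lay far below every wt library, and the gld values were closer together than the wt values. The change was −2.20 ± 0.18, a level 4.60-fold lower in gld (edgeR adjusted p = 7.97e-07). The call held in each of 13 alternative analyses, in which the change ran from −2.36 to −2.07.

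Enpp1 encodes the ectoenzyme that produces pyrophosphate (ENSMUSG00000037370, chromosome 10, 24637914 to 24712159, minus strand), and it moved opposite to Alpl. The wt libraries held 20, 16 and 18 counts (9.40, 5.06 and 5.53 CPM), and the gld libraries 183, 99 and 192 (45.6, 26.1 and 39.4 CPM). The lowest gld library, gld 2, was still well above the highest wt library, wt 1. The change was 2.50 ± 0.40, or 5.65-fold higher in gld (edgeR adjusted p = 0.000418), and it was called in all 13 alternatives, from 2.29 to 2.80.

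Set against each other inside each library, where scaling and depth cancel, there were 19.1, 51.3 and 41.1 Alpl counts for each Enpp1 count in wt. In gld there were 0.923, 1.90 and 1.34. The ratio fell from 37.1 ± 16.5 to 1.39 ± 0.489 (SD, n = 3), which is 26.7-fold, and the groups did not overlap. A two-sided exact permutation test gave p = 0.1, the smallest that 3 libraries against 3 can reach. The ratio was computed after both genes' values had been seen, and its size in a library is not a ratio of molecules, since each gene's end is captured with its own efficiency.

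Ank encodes a membrane protein through which pyrophosphate and ATP leave the cell (ENSMUSG00000022265, chromosome 15, 27466677 to 27594909, plus strand). Its wt counts were 296, 409 and 498 (139, 129 and 153 CPM), and its gld counts 318, 263 and 646 (79.3, 69.4 and 132.6 CPM). The libraries gld 1 and gld 2 lay below all wt libraries, and gld 3 lay inside the wt range. The change of −0.58 ± 0.22 did not pass (edgeR adjusted p = 0.0998). It passed in 4 of 13 alternatives, among them without gld 3, at −0.94 (adjusted p = 0.00446), when scaled by library size alone, at −0.74 (adjusted p = 0.0292), and with no low-count filter, at −0.57 (adjusted p = 0.0315). The number of Enpp1 counts for each Ank count was 0.0676, 0.0391 and 0.0361 in wt and 0.575, 0.376 and 0.297 in gld, 8.75-fold higher in gld on the group means. This ratio, too, was chosen after the values were seen (two-sided exact permutation p = 0.1, the smallest possible).

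**Figure D2:**
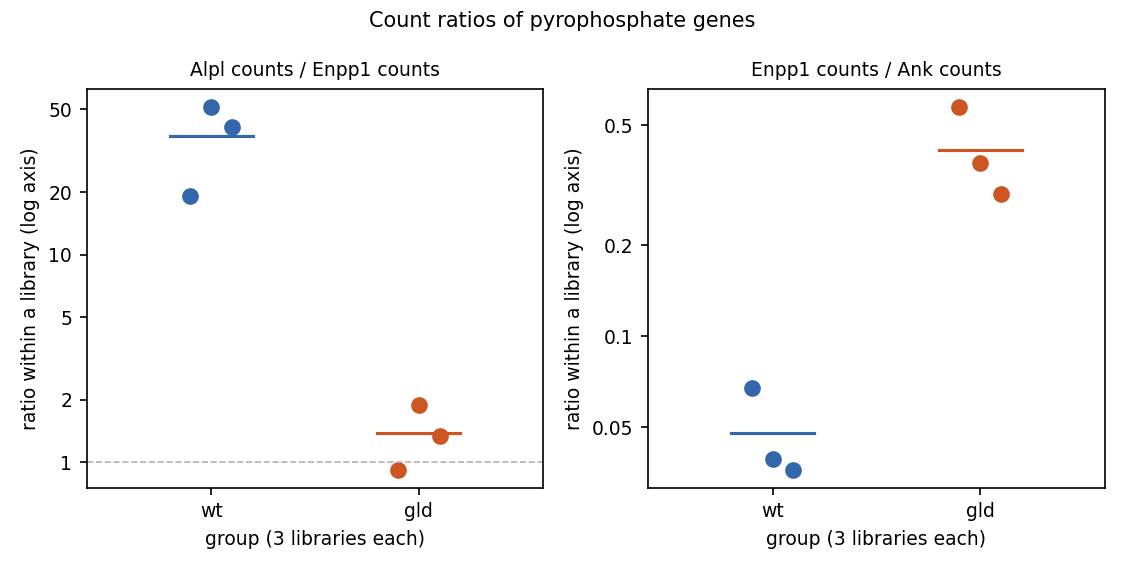
Counts of Alpl divided by counts of Enpp1 (left) and counts of Enpp1 divided by counts of Ank (right) in each library, on log axes; points are the 3 libraries of a group, bars are group means, and the dashed line in the left panel marks equal counts. The Alpl to Enpp1 ratio is 19.1 or more in wt and 1.90 or less in gld, and the Enpp1 to Ank ratio is 0.0676 or less in wt and 0.297 or more in gld.

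The vesicle enzymes could be read for one gene of the pair. Smpd3 encodes neutral sphingomyelinase 2, which frees phosphocholine from sphingomyelin and whose loss in mice leaves bone and cartilage poorly mineralized (ENSMUSG00000031906, chromosome 8, 106252548 to 106337988, minus strand). Counts of 0, 9 and 6 in the wt libraries stood beside 49, 60 and 51 in the gld libraries. The wt mean was 1.56 ± 1.44 CPM and the gld mean 12.8 ± 2.73 CPM (SD, n = 3), and every gld library lay above every wt library. The change was 2.94 ± 0.82 (edgeR adjusted p = 0.0220), and the call was lost in limma-voom (adjusted p = 0.124) and without wt 3 (0.0614), gld 1 (0.0579) or gld 2 (0.105). Of the last 300 exonic bases of Smpd3, 247 lie in exons of Prmt7 on the other strand, and without a stated strand setting reads of these genes cannot be assigned with certainty. Prmt7 held 89, 84 and 74 counts among wt libraries and 65, 93 and 88 among gld libraries, a change of −0.62 ± 0.35 (edgeR adjusted p = 0.279), which is opposite in sign to that of Smpd3.

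Phospho1 encodes the phosphatase that takes phosphate from phosphocholine inside matrix vesicles (ENSMUSG00000050860, chromosome 11, 95824499 to 95832140, plus strand), and it was listed at 0 in all 6 libraries. All of its last 300 exonic bases also lie in exons of Zfp652 on the same strand and of Abi3 on the other. Slc20a1, the gene of the phosphate carrier PiT-1 (ENSMUSG00000027397, chromosome 2, 129198764 to 129211616, plus strand), was also listed at 0 throughout, and 2.3% of its last 300 exonic bases lie in only 1 of its annotated transcripts, the rest being shared by several. The end of Phex is shared in this way too, and that gene had counts. Of 73 other mineralization genes, 12 of the 32 with a shared end and 8 of the 41 with a single end were listed at 0. Neither listing shows that the transcript was missing from the cells.

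Slc20a2 encodes PiT-2, the sister sodium-phosphate carrier (ENSMUSG00000037656, chromosome 8, 22476788 to 22569612, plus strand). Its wt counts were 367, 502 and 569 (172.5, 158.7 and 174.7 CPM) and its gld counts 937, 566 and 773 (233.7, 149.2 and 158.7 CPM). The library gld 1 was the highest of all and gld 2 the lowest, and all 3 wt values lay between them. The change was 0.10 ± 0.18 (edgeR adjusted p = 0.799), and its sign turned without gld 1 (−0.15) and when scaled by library size alone (−0.06).

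Phex encodes a membrane endopeptidase of osteoblasts and osteocytes whose loss causes X-linked hypophosphataemia (ENSMUSG00000057457, chromosome X, 157162075 to 157415312, minus strand). No wt library held a count of it, and the gld libraries held 35, 26 and 30 counts, or 8.73, 6.86 and 6.16 CPM. A count of 0 over the wt group allows a level of up to 0.351 CPM (3 counts over the group, counting error only), and against that floor Phex was at least 20.7-fold higher in gld (edgeR adjusted p = 0.00349). The call held in all 13 alternatives, with adjusted p from 8.93e-05 to 0.0279, for a gene that entered the test through its gld counts alone.

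Dmp1 and Ibsp encode acidic phosphoproteins of mineralized matrix that bind calcium and collagen, and both belong to the SIBLING family, whose genes lie side by side on one chromosome. Dmp1 (dentin matrix protein 1, ENSMUSG00000029307, chromosome 5, 104202613 to 104214102, plus strand) held 2, 0 and 0 counts in the wt libraries and 23, 24 and 24 in the gld libraries. The wt counts all came from wt 1, while the 3 gld libraries were nearly equal. Its pooled level was 23.9-fold higher in gld (95% exact counting interval 6.39 to 202), and edgeR called it at an adjusted p = 0.0392. It no longer passed in 8 of 13 alternatives, among them limma-voom (adjusted p = 0.0768), no low-count filter (0.0703), and each fit in which a library other than wt 1 was left out (0.134 for wt 2, 0.157 for wt 3, 0.126 for gld 1, 0.154 for gld 2 and 0.0952 for gld 3). Without wt 1, the only wt library with a count, the fitted change was 7.44. DESeq2 gave an adjusted p = 0.0134.

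Ibsp (bone sialoprotein, ENSMUSG00000029306, chromosome 5, 104299171 to 104311469, plus strand) held 1, 2 and 0 counts in the wt libraries and 41, 24 and 32 in the gld libraries. No wt library held more than 2 counts and no gld library fewer than 24. Its pooled level was 21.8-fold higher in gld (95% exact counting interval 7.24 to 108). EdgeR gave it an adjusted p = 0.0136, and the call was lost in limma-voom (adjusted p = 0.0844) and without gld 1 (0.0836). Such intervals cover counting error only.

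The 5 genes Dspp, Dmp1, Ibsp, Mepe and Spp1 lie in that order within 270.3 kb. Dspp and Mepe were listed at 0 in all 6 libraries, and Spp1, which encodes osteopontin, had 4 counts, all in gld 1.

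**Figure D3:**
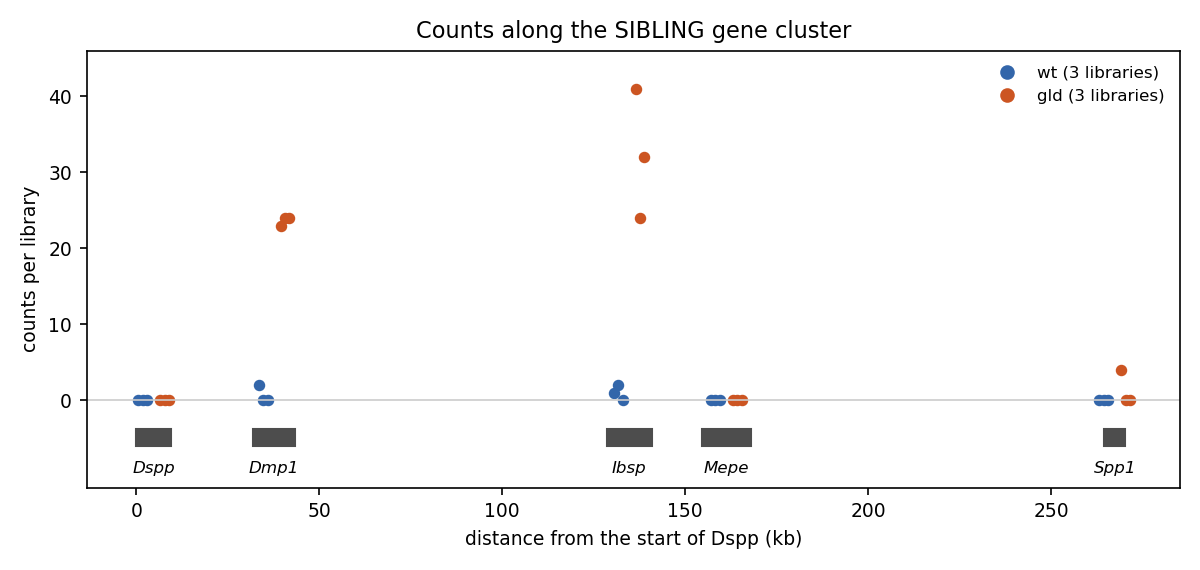
Counts per library of the 5 SIBLING genes, plotted at their distance in kb from the start of Dspp; grey boxes are the genes to scale and points are libraries. Dmp1 and Ibsp hold 23 to 41 counts in each gld library and at most 2 in a wt library, and the other genes hold 0 to 4.

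The calls of Alpl, Enpp1 and Phex thus stood under every alternative tried, and those of Dmp1, Ibsp and Smpd3 did not. Phex had no count in wt and entered through its gld counts alone, so its calls have less weight than those of Alpl and Enpp1. Of the 10 genes, 3 were called in limma-voom and 3 without gld 1, against 6 with all libraries in edgeR and 6 in DESeq2. All 13 alternatives kept the direction of the 6 called genes.

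**Figure D4:**
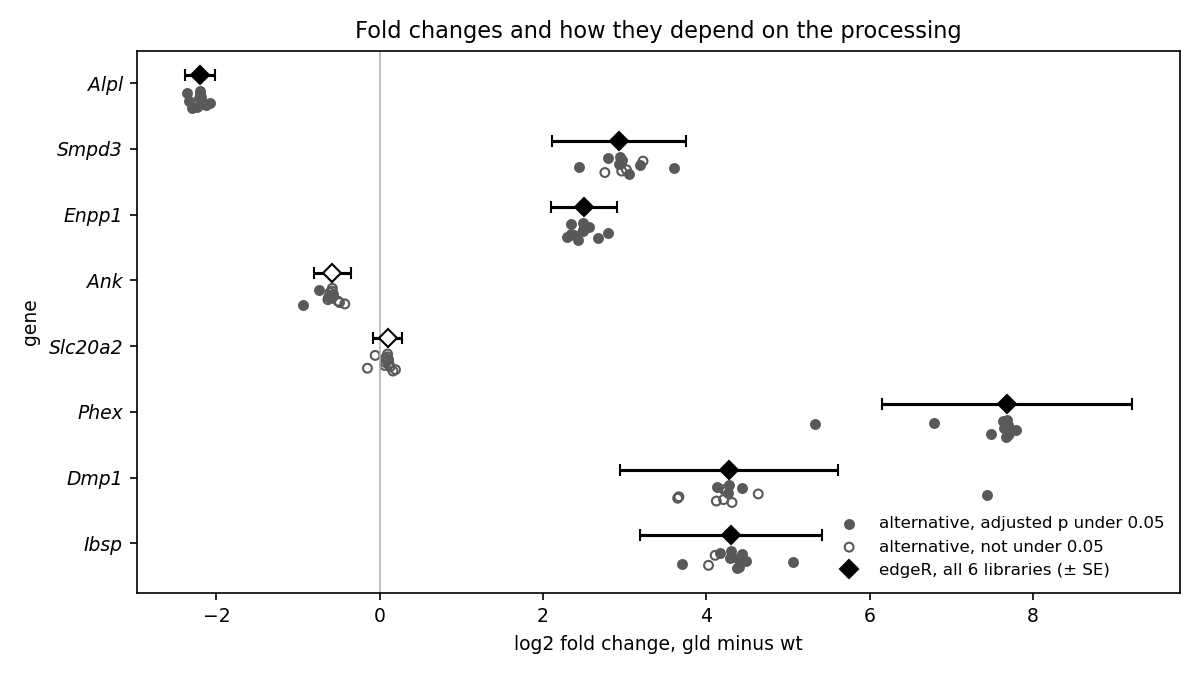
Log2 fold change (gld minus wt) of the 8 tested genes; diamonds with SE bars are edgeR on all 6 libraries (filled where the adjusted p is under 0.05), and grey points are the 13 alternative analyses (filled where under 0.05, open where not). Alpl stays between −2.36 and −2.07 and Enpp1 between 2.29 and 2.80, all filled, while Dmp1, Ibsp and Smpd3 have both filled and open points.

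Other genes of mineralization were listed by role, 73 in all, of which 33 could be tested, 9 were higher, 3 were lower and 21 did not pass. Of the 9, Enpp2, Clec3b and Chka did not pass the low-count filter in wt. The median log2 change of the 33 tested genes was 0.28, beside 0.02 for all genes tested. Scaling by library size alone moved the median of all genes to −0.14.

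Among other enzymes of phosphate, pyrophosphate and nucleotide breakdown, 6 of 16 were tested, 1 was higher and 1 was lower. Nt5e, which encodes CD73 and turns extracellular AMP into adenosine and phosphate, went from 142.4 ± 23.9 to 12.1 ± 2.46 CPM (SD, n = 3), a change of −3.55 ± 0.24 (edgeR adjusted p = 1.03e-07). Enpp2, which encodes autotaxin, a relative of Enpp1 that makes lysophosphatidic acid rather than pyrophosphate, held 6, 0 and 4 counts among wt libraries and 899, 714 and 1116 among gld libraries, a change of 7.46 ± 0.41 (edgeR adjusted p = 1.15e-08).

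Of 14 genes of phosphate transport and its hormonal control, 7 were tested, 2 were higher and 1 was lower. Mme, which encodes neprilysin, a membrane peptidase of the same family as Phex, rose from 104.9 ± 32.7 to 1603 ± 65.9 CPM (3.92 ± 0.19, edgeR adjusted p = 3.84e-09). Fam20c, the kinase gene for secreted phosphoproteins such as Dmp1 and Ibsp, rose from 12.8 ± 5.65 to 56.2 ± 20.8 CPM (2.11 ± 0.38, edgeR adjusted p = 0.00107). The vitamin D receptor gene Vdr fell from 247.5 ± 25.8 to 67.2 ± 12.1 CPM, a change of −1.88 ± 0.17 (edgeR adjusted p = 2.08e-06).

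Of 14 genes of mineral-binding matrix proteins and of the enzymes that modify them, 6 were tested, and 4 were higher and none lower. Mgp, which encodes matrix Gla protein, an inhibitor of calcification, rose from 5472 ± 273 to 11470 ± 1068 CPM (1.07 ± 0.09, edgeR adjusted p = 5.98e-07). Gas6, another protein with vitamin K-dependent Gla residues, rose from 858 ± 115.5 to 2289 ± 176 CPM (1.42 ± 0.12, edgeR adjusted p = 6.31e-07). Ggcx, which encodes the carboxylase that makes those residues, rose by 1.44 ± 0.27 (edgeR adjusted p = 0.00161). Clec3b, which encodes tetranectin, had no count in wt and 89, 113 and 80 in gld, at least 65.0-fold higher (edgeR adjusted p = 2.95e-05).

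Of 12 genes of matrix vesicle lipids and choline, 7 were tested, 2 were higher and 1 was lower. The choline transporter gene Slc44a1 rose by 1.17 ± 0.19 (edgeR adjusted p = 0.000425). Sgms2 encodes a synthase of sphingomyelin, the lipid that the Smpd3 enzyme splits. It went from 95.4 ± 23.6 to 47.5 ± 11.0 CPM, a change of −1.01 ± 0.24 (edgeR adjusted p = 0.00777), and the call was lost without wt 2 (adjusted p = 0.0546). The choline kinase gene Chka was higher by 2.16 ± 0.64 (edgeR adjusted p = 0.0287), a call lost in 5 of 13 alternatives, among them limma-voom and those without wt 2, wt 3 or gld 2.

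None of 5 tested genes of calcium and proton handling, of 9 listed, was called by edgeR, with 0 at an unadjusted p under 0.05 and 0 in DESeq2 and limma-voom. The calcium pump gene Atp2b1 had −0.52 ± 0.24 (edgeR adjusted p = 0.185, and 0.0210 without gld 3). Neither of 2 tested transcription factors of 8 listed was called by edgeR, with 1 at an unadjusted p under 0.05 and 0 in DESeq2 and limma-voom. Msx2 had 0.91 ± 0.37 (edgeR adjusted p = 0.124) and Runx2, the master regulator of osteoblasts, 0.35 ± 0.77 (edgeR adjusted p = 0.842). Of the 8 listed, 6 have an end shared, wholly or partly, by several transcripts. Runx2 is among them and had 119 counts over all libraries, so its value does not show that it was unchanged.

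**Figure D5:**
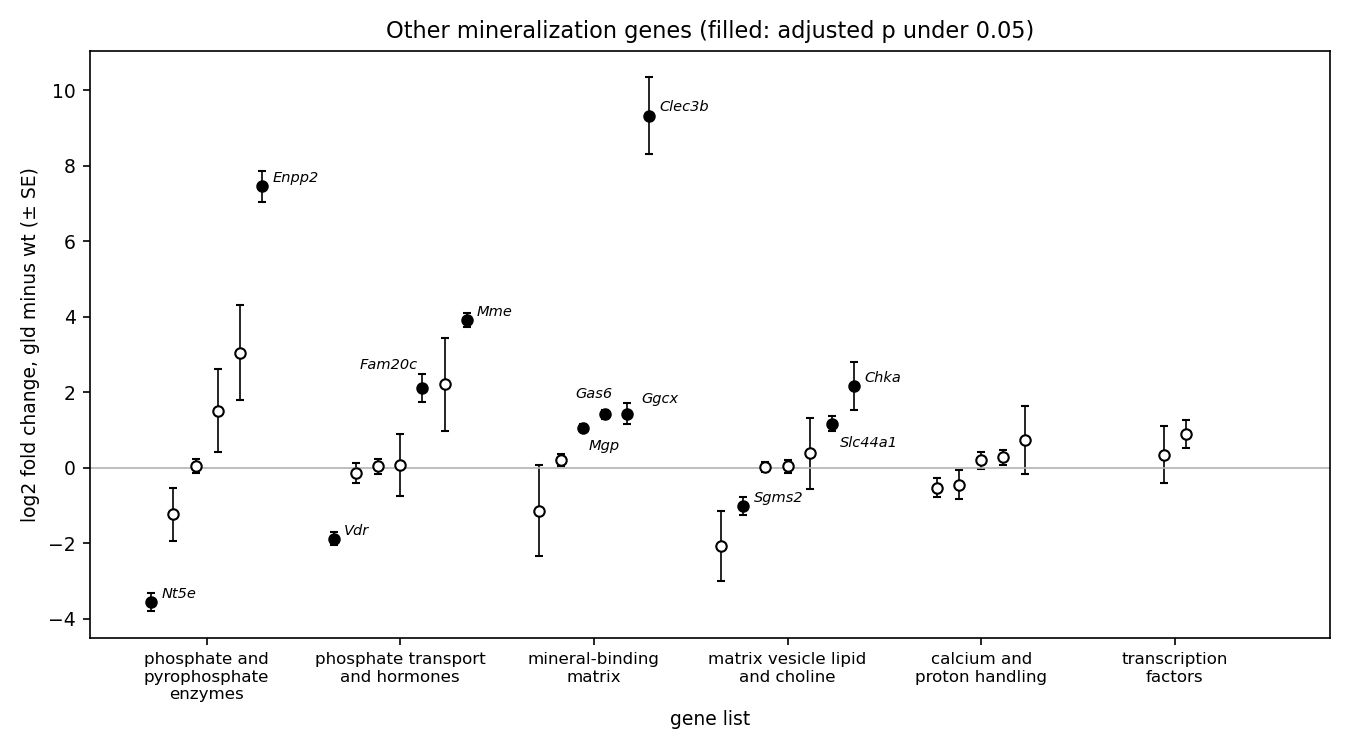
Log2 fold change (gld minus wt) ± SE of the 33 tested genes among 73 other mineralization genes, by list; filled points have an edgeR adjusted p under 0.05 and are named. The mineral-binding matrix list holds 4 filled points, all above 0, and the calcium and transcription factor lists hold none.

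Profiles most like those of the called genes were sought among 8537 tested genes with a symbol, by the distance between centred log2 CPM values over the 6 libraries. Nearest to Alpl were Sod3, an extracellular superoxide dismutase gene, Cyp26b1, which encodes an enzyme that breaks down retinoic acid, and Gm2115 (distances 0.439, 0.445 and 0.456). Nearest to Enpp1 were Tmem246, Fmo1 and Stard8 (0.603 to 0.714), and nearest to Phex were Gprc5c, R3hdml and Gm37024 (0.218 to 0.374). Dmp1 was nearest to Atp1b1, Calcrl and Serpinb1a (0.438 to 0.749), Ibsp to Unc5c, Ndrg1 and Pcdhb9 (0.549 to 0.688), and Smpd3 to Col27a1, Elmo1 and Msx1 (0.819 to 0.979). A prior count of 2 was added before the log, and these distances are descriptions over 6 libraries.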

How the data were processed

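RNA of 3 wt and 3 gld cultures was sequenced at the 3′ end (QuantSeq FWD, single reads of 75 nt, per the labels' protocols). Cutadapt trimming and STAR alignment are stated in the design text, and FastQC, Trim Galore, DESeq2 and mm10 are named per the submitters' processing notes. Which counter, strand setting and annotation were used is not given in the sources used here. The deposited values are raw counts per Ensembl gene, which were used as deposited; 1 row without an identifier was left out. Symbols were found for 51883 of 57180 identifiers. Gene positions and transcript ends are from GENCODE M21 (GRCm38).

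Genes were kept by filterByExpr (about 10 counts, here 2.80 CPM, in 3 libraries and 15 in all) and scaled by TMM. EdgeR 4.0.16 (in R 4.3.3) compared the gld and wt libraries by its quasi-likelihood test, all 6 in one model without covariates, with Benjamini-Hochberg adjustment over 8692 genes and a threshold of 0.05. It was checked on simulated counts. SE is the absolute log2 change divided by the square root of F. Alternatives were DESeq2 1.42.0, limma-voom (limma 3.58.1), other scalings and filters, a replicate block, and leaving out each library. Where wt had no count, the fold is against a floor of 3 counts over the group; with 1 to 3 counts, it is the pooled ratio with a 95% exact interval.

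The 10 genes and all lists were chosen with earlier results of these data known. All 10 are named; of each other mineralization list, up to 4 called genes are named by adjusted p, or 2 by level where none was called, except 1 gene that is not reported here. Marker lists are outside this rule, and the markers named were chosen after their values were seen.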

Additional observations from a re-analysis of the deposited data

How the results depend on the processing

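Of the 8 tested genes, Alpl, Enpp1 and Phex kept their direction and their call in all 13 alternatives, and Dmp1, Ibsp and Smpd3 kept their direction in all of them. Phex, Dmp1, Ibsp and Smpd3 entered through their gld counts alone, which favours both the call and its direction. In limma-voom the log2 changes of Dmp1, Ibsp and Smpd3 were 4.22, 4.11 and 3.22 and did not pass, and 3 of the 10 genes were called. With no low-count filter Dmp1 had 4.25 and did not pass. Ank passed with no low-count filter (−0.57), scaled by library size alone (−0.74) and without gld 3; the causes were not tested. Slc20a2 turned to −0.056 when scaled by library size alone.

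Leaving out each library in turn, Alpl ran from −2.33 to −2.07, Enpp1 from 2.29 to 2.80, Ank from −0.94 to −0.43, Phex from 7.48 to 7.80 (5.34 in limma-voom and 6.78 in DESeq2, since with no wt count the fitted value depends on the prior count and the tool), Dmp1 from 3.65 to 7.44, Ibsp from 3.70 to 5.06, Smpd3 from 2.44 to 3.60 and Slc20a2 from −0.15 to 0.19. From 3 (without gld 1) to 6 of the 10 genes were called, and 1224 to 1424 genes of the whole table. No label says that the replicate numbers in the titles pair the samples. Deviations of same-numbered libraries correlated at −0.02 in each pair (from −0.0231 to −0.0150). Deviations of the 3 libraries of a group sum to 0, so these values do not settle whether the libraries are paired. With the replicate block 1359 genes were called, against 1515 without it. With the block Dmp1 did not pass (4.63, adjusted p = 0.0929) and Ank did (−0.63, adjusted p = 0.0481); no other call among the 8 genes changed.

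Scaled by library size alone, edgeR called 720 genes higher and 975 lower, against 847 and 668 with TMM. Among the 73 other mineralization genes, 8 to 10 were called higher and 2 to 4 lower over the 13 alternatives. The depth limits Phex, Dmp1, Ibsp and Smpd3, which hold at most 15 counts over the 3 wt libraries.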

Other observations

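Several osteoblast genes had too few counts for the test, and they did not all go the same way. They were singled out after their values were seen. Panx3, a channel gene of osteoblasts and growth plate cartilage that lets ATP out of the cell, had no count in wt and 11, 17 and 26 in gld. Against the floor of 3 counts over the wt group it was at least 11.9-fold higher in gld. Bglap2, an osteocalcin gene whose counts are uncertain because Bglap is a near-identical copy, had no count in wt and 16, 3 and 22 in gld, at least 8.83-fold higher. Sp7, which encodes osterix, had no count in wt and 0, 16 and 4 in gld, so that 1 gld library lies with the wt libraries. Ifitm5, an osteoblast membrane protein gene, held 5, 4 and 3 counts among wt libraries and 16, 4 and 3 among gld libraries, and the groups overlapped. Sparc, which encodes osteonectin, held 0, 23 and 5 among wt libraries and 0, 0 and 23 among gld libraries, overlapping as well. The end of Sparc is wholly, and that of Sp7 partly, shared by several annotated transcripts. The low counts of Sparc and Sp7 do not show that their transcripts were scarce.

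Collagen I transcripts were also higher in gld, so Dmp1 and Ibsp were set against them within each library, after their values had been seen. Together they held 0.874, 0.267 and 0 counts for every 10000 counts of Col1a1 and Col1a2 in wt, and 2.60, 1.87 and 1.87 in gld. The group means differed 5.56-fold. No test is given, since both genes entered through their gld counts and the ratio was chosen with those seen. The log2 difference of 2.48 ran from 1.89 without wt 3 to 3.99 without wt 1, which held 3 of the 5 wt counts.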
